A study of Mus musculus with 11 samples.

Results

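The genes described here are 10 that are known to be kept off, or "disallowed", in beta cells: *Ldha*, *Slc16a1*, *Hk1*, *Acot7*, *Oat*, *Igfbp4*, *Maf*, *Cxcl12*, *Smad3* and *Zyx*. They were found by symbol among the 55401 rows of a count table of sorted mouse islet cells, and each symbol had a row. Libraries came from male C57BL6/J mice, 10 weeks old by their labels (the study's text gives another age), on a chow diet. All cells, controls included, came from a cross in which Cre under the rat insulin promoter switches on tdTomato in beta cells and *Nnat*-EGFP reports the promoter of the imprinted gene *Nnat*. From each of 4 mice came a tdTomato fraction labelled NNAT-positive by EGFP and another labelled NNAT-negative. Mice 1, 2 and 3 also gave a fraction without tdTomato, labelled non-beta cells (*n*=3), which pools alpha, delta, PP, exocrine, endothelial, stromal and immune cells of hand-picked islets. The reporter, not endogenous NNAT, set the gate. Libraries that share a replicate number in their labels are taken here as from 1 mouse.

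A beta cell couples glucose to insulin release by sending nearly all pyruvate into mitochondria. Lactate dehydrogenase A and the plasma membrane pyruvate and lactate carrier MCT1, the product of *Slc16a1*, would let pyruvate leave that route or let pyruvate and lactate from blood enter it. Hexokinase 1 has a high affinity for glucose and would phosphorylate it at low concentrations, at which the beta cell normally releases little insulin. The other disallowed genes encode metabolic enzymes, secreted factors and regulators of growth that most tissues use and that are low in beta cells.

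Total counts per library were between 30420352 and 43238376, and 3 counts, used here as a floor, equal 0.0649 to 0.102 CPM (read counts scaled to a common library size, here with TMM factors). The fractions carried their defining markers: all 9 beta cell markers were called higher in both beta cell fractions than in non-beta cells, and the 6 alpha cell markers lower. *Nnat* itself went against the labels. Mice 1 to 4 gave 50.5, 46.4, 46.0 and 101 CPM under the NNAT-positive label and 74.8, 80.8, 66.5 and 153 CPM under the NNAT-negative label, so *Nnat* was lower in the former in 4 of 4 mice (log2 fold change -0.62, SE 0.17, unadjusted *p*=0.00484, adjusted *p*=0.444, edgeR quasi-likelihood test). The study's own supplementary listing of these libraries also gives the beta cell fractions the opposite names. Names below follow the sample labels, and every direction between the beta cell fractions rests on them. The libraries labelled NNAT-negative of mice 1 and 2 stood apart in complexity, with 387 and 410 genes at 0 that averaged at least 20 counts in the other beta cell libraries, against 11 to 93 genes in the other 6.

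Stretches upstream of 3 genes that handle glucose and its products are shown because they differ in their density of CpG, the dinucleotide at which vertebrate DNA is methylated. Each is the 250 bases before a start site in RefSeq, GRCm38.p6, on the strand of the gene, and capitals mark each CpG. The *Ldha* window is chr7:46845554-46845803 on the plus strand, within the annotated span of the gene and outside its exons. The *Slc16a1* window is chr3:104638414-104638663 on the plus strand, upstream of the gene. The *Hk1* window is chr10:62379909-62380158 on the minus strand, just upstream of the annotated gene.
Ldha: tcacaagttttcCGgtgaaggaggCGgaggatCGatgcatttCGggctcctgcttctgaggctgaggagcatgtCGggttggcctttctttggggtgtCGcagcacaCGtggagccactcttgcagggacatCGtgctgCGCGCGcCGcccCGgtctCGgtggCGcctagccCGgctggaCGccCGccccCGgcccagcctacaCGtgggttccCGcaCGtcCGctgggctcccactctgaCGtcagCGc
Slc16a1: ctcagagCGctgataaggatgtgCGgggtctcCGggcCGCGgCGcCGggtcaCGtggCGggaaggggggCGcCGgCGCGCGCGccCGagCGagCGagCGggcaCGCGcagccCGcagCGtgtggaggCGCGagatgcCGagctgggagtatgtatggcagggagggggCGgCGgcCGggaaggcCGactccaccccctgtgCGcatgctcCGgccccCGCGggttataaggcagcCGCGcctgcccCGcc
Hk1: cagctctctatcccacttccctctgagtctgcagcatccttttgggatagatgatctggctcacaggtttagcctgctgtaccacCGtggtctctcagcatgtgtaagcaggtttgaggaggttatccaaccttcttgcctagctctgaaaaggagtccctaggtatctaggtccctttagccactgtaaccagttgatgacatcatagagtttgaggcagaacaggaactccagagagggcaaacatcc
The windows held 25 CpG for *Ldha*, 37 for *Slc16a1* and 1 for *Hk1*. Across 32851 RefSeq start sites the median was 6, and 89.3%, 97.8% and 7.87% of them had fewer than these windows. RefSeq gave 9 of the 10 genes a window, with 11 start sites in all, and *Maf* had no entry. The 11 windows had a median of 14 CpG. A second start site of *Hk1*, at chr10:62340422-62340671, had 14, and a second of *Ldha*, at chr7:46846832-46847081, had 9. The order of *Ldha* and *Hk1* in CpG density thus depends on the start site, and use of the start sites was not measured. The letters ACGTG, the core of the hypoxia response element and of many E-boxes, were searched on both strands, so that a palindromic CACGTG counts on each. They were found in the windows of *Ldha* (5 matches at the first start site) and *Slc16a1* (2 matches) and of no other of these genes, and in 16.6% of all windows. GGGCGG, the GC box, was found for 6 of the 9 genes and in 32.7% of all windows. CCAAT was found for *Oat* alone, against 33.8% of all windows. Methylation of these windows was not measured in the libraries described here.

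All 10 genes were lower in beta cells than in non-beta cells, and none of the 8 beta cell libraries reached the lowest of the 3 non-beta libraries for any of them. Of all 17424 genes tested, 26.2% were separated in this way. Against non-beta cells, the 10 genes were called lower, at an adjusted *p* below 0.01 and over 2-fold, in the fraction labelled NNAT-positive (background 15.5% of genes) and in that labelled NNAT-negative (background 17.1%). The log2 fold changes had a median of -6.08 for the former (all genes -0.06) and -7.27 for the latter (all genes -0.13). These comparisons share the non-beta libraries. The 10 genes passed the filter on low counts, but *Maf*, *Cxcl12* and *Slc16a1* passed it only through the non-beta libraries, so the counts of calls describe the list and are not a test of it. In sorted pools, fewer cells that express a gene and less RNA per cell cannot be told apart.

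**Figure D1:**
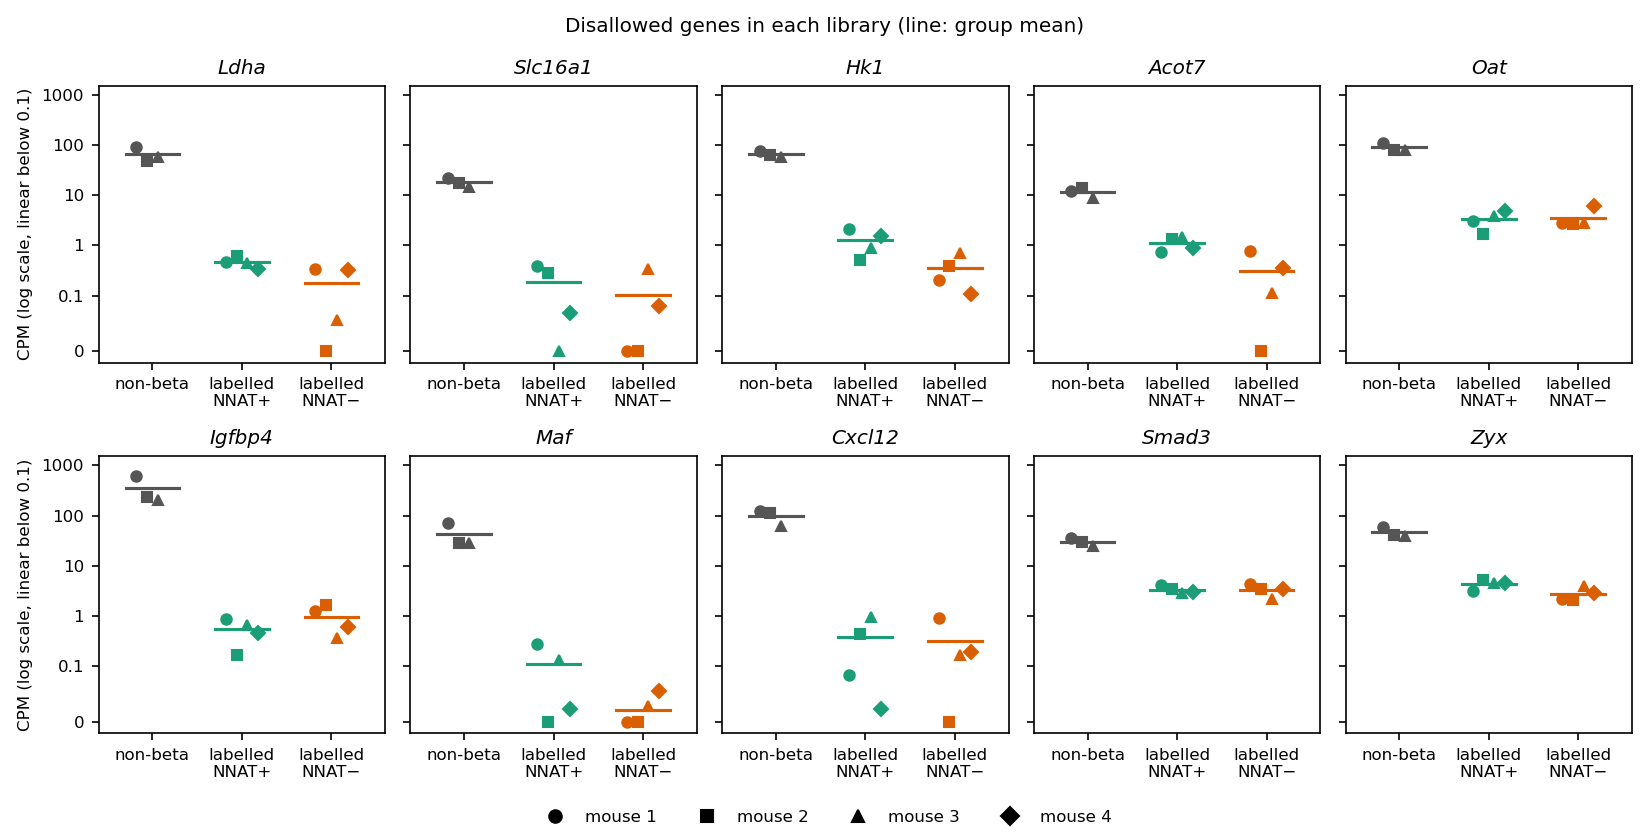
CPM of each gene in each library (log scale, linear below 0.1), with the group mean as a line and the mouse as the symbol. Non-beta libraries lie above all beta cell libraries in every panel, and beta cell values reach 0 for *Ldha*, *Slc16a1*, *Acot7*, *Maf* and *Cxcl12*, while *Oat*, *Smad3* and *Zyx* stay above 1 CPM throughout.

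*Ldha* (chromosome 7, 46841475 to 46855627, plus strand), the muscle-type subunit of lactate dehydrogenase, had 91.5, 47.2 and 58.3 CPM in the non-beta libraries of mice 1, 2 and 3. Libraries labelled NNAT-positive had 17, 26, 17 and 15 counts in mice 1 to 4, or 0.478, 0.624, 0.445 and 0.343 CPM. Those labelled NNAT-negative had 10, 0, 2 and 12 counts, or 0.341, 0, 0.0555 and 0.328 CPM. Even the highest beta cell library was therefore far below the lowest non-beta library, and the mean over the beta cell libraries was 0.498% of the non-beta mean. Log2 fold changes against non-beta cells were -7.08 (SE 0.43, adjusted *p*=7.58e-07) and -8.52 (SE 0.49, adjusted *p*=4.46e-07) for the fractions labelled NNAT-positive and NNAT-negative. *Ldha* is known for many processed pseudogenes, and reads shared with them may be lost or split by counting. *Ldhb*, the heart-type subunit, behaved otherwise: it had 9.15±4.70 CPM (SD, *n*=3) in non-beta cells and 9.95±3.17 CPM (SD, *n*=8) in beta cells, and neither beta cell fraction passed the test (adjusted *p*=0.507 and 0.699). Here and below, *n*=8 counts beta cell libraries, which are both fractions of 4 mice, so its SD mixes spread within and between mice. Per kilobase of exon, *Ldhb* had 6.34 CPM and *Ldha* 0.0987 CPM in beta cells, whereas in non-beta cells they had 5.83 and 19.8 CPM.

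*Slc16a1* (chromosome 3, 104638668 to 104658462, plus strand) had 22.2, 17.5 and 14.7 CPM in non-beta cells. It had 14, 12, 0 and 3 counts in libraries labelled NNAT-positive and 0, 0, 12 and 3 in those labelled NNAT-negative, at most 0.393 CPM. Thus 3 of the 8 beta cell libraries held none, and these were spread over both fractions. The beta cell mean was 0.805% of the non-beta mean (log2 fold changes -6.40, SE 0.99, and -7.04, SE 1.06). Of the other monocarboxylate carriers, *Slc16a3* (MCT4, which exports lactate) had no count in any beta cell library against 1.51 to 3.91 CPM in non-beta cells, at least 31.4-fold lower in the fraction labelled NNAT-positive and at least 25.8-fold lower in that labelled NNAT-negative at a floor of 3 counts per library. *Slc16a7* (MCT2, with a high affinity for pyruvate) was measurable in every beta cell library, at 0.396 to 3.24 CPM, against 18.8±3.48 CPM (SD, *n*=3) in non-beta cells (log2 fold changes -3.68 and -4.23, adjusted *p*=4.69e-05 and 1.90e-05). *Bsg*, the chaperone that brings MCT1 to the membrane, had 462±85.2 CPM (SD, *n*=8) in beta cells, against 613±63.1 CPM (SD, *n*=3) outside them, and was not called (adjusted *p*=0.0329 and 0.0789). In beta cells the carrier mRNAs were thus scarce while that of the chaperone was abundant.

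*Hk1* (chromosome 10, 62268855 to 62379908, minus strand) had 77.6, 64.7 and 58.0 CPM in non-beta cells. In libraries labelled NNAT-positive it had 77, 21, 34 and 67 counts, or 2.16, 0.504, 0.890 and 1.53 CPM. Libraries labelled NNAT-negative had 6, 13, 26 and 4 counts, or 0.205, 0.396, 0.721 and 0.109 CPM. No library was at 0, and the beta cell mean was 1.22% of the non-beta mean (log2 fold changes -5.76, SE 0.48, and -7.49, SE 0.51). *Hk2*, the insulin-responsive isoform of muscle and fat, had 0 to 6 counts in beta cell libraries and 4.44 to 10.9 CPM in non-beta cells (log2 fold changes -7.52 and -7.17). *Hk1* shares 157 exonic bases with the antisense gene *Hk1os*, which had 0 to 34 counts per library. Whether counting used the strand is not stated.

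*Acot7* and *Oat* are the remaining metabolic enzymes. *Acot7* (chromosome 4, 152178134 to 152271855, plus strand), a cytosolic thioesterase that releases fatty acids from long-chain acyl-CoA, had 12.1, 14.0 and 8.71 CPM in non-beta cells. It had 26, 57, 55 and 38 counts (0.730 to 1.44 CPM) in libraries labelled NNAT-positive and 23, 0, 4 and 13 counts (0 to 0.785 CPM) in those labelled NNAT-negative. The beta cell mean was 6.11% of the non-beta mean, which was itself the lowest of the 10. Its call in the fraction labelled NNAT-positive was the weakest of the 10 (log2 fold change -3.32, SE 0.77, adjusted *p*=0.00521) and was lost without mouse 3 (adjusted *p*=0.0247) or without mouse 4 (adjusted *p*=0.0141).

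*Oat* (chromosome 7, 132557478 to 132576398, minus strand), the mitochondrial aminotransferase that links ornithine to glutamate and proline, had 110, 79.4 and 79.8 CPM in non-beta cells. Libraries labelled NNAT-positive had 3.03, 1.68, 3.87 and 4.93 CPM, against 2.80, 2.71, 2.80 and 6.07 CPM in those labelled NNAT-negative. Mouse 4 gave the highest value in both fractions. With 70 to 222 counts in every beta cell library, *Oat* was the most abundant of the 10 in beta cells per kilobase of exon, although its mean was 3.88% of that in non-beta cells (log2 fold changes -5.04, SE 0.22, and -4.96, SE 0.22). That mean, like the other beta cell means given here, includes mouse 4, which gave no non-beta library. Within mice 1, 2 and 3 the share was 2.11% to 4.85% in the fraction labelled NNAT-positive and 2.54% to 3.51% in that labelled NNAT-negative.

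*Igfbp4* and *Cxcl12* encode secreted proteins of mesenchymal tissue. *Igfbp4* (chromosome 11, 99041244 to 99054392, plus strand), a binding protein that holds insulin-like growth factors, had 607, 231 and 204 CPM in non-beta cells, the highest level of the 10. It had 31, 7, 25 and 20 counts (0.168 to 0.871 CPM) in libraries labelled NNAT-positive and 36, 55, 13 and 22 counts (0.361 to 1.67 CPM) in those labelled NNAT-negative. No beta cell library was at 0, yet the mean there was 0.216% of that in non-beta cells, 462-fold lower (log2 fold changes -9.13, SE 0.42, and -8.27, SE 0.40). Its relatives *Igfbp6* and *Igfbp3*, named because their changes were among the largest of their list, had larger contrasts. *Igfbp6* had no count in the libraries labelled NNAT-positive, at least 872-fold below non-beta cells, and 1 count in all in those labelled NNAT-negative, 0.00967% of non-beta cells (95% counting interval 0.000245% to 0.0539%). *Igfbp3* had 213±25.3 CPM (SD, *n*=3) in non-beta cells and 0.178±0.239 CPM (SD, *n*=4) in the fraction labelled NNAT-positive.

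*Cxcl12* (chromosome 6, 117168535 to 117181367, plus strand), the chemokine that retains blood cells and their progenitors in their niches, had 126, 110 and 61.8 CPM in non-beta cells. Counts in beta cells were scattered, at 3, 18, 37 and 1 in libraries labelled NNAT-positive and 27, 0, 6 and 7 in those labelled NNAT-negative, and their mean was 0.351% of that in non-beta cells (log2 fold changes -7.67, SE 0.71, and -7.99, SE 0.74). The receptors of CXCL12 were low as well. *Cxcr4* had 19.4 to 34.3 CPM in non-beta libraries and 0 to 14 counts per beta cell library. *Ackr3*, the scavenging receptor, had 38.3±11.5 CPM (SD, *n*=3) in non-beta cells and 2 counts in all in the libraries labelled NNAT-positive, 0.0321% of non-beta cells (95% counting interval 0.00388% to 0.116%).

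The regulators of transcription and of the cytoskeleton ended the list. *Maf* (chromosome 8, 115682942 to 115707794, minus strand), the large Maf factor c-Maf, had 69.5, 28.9 and 28.7 CPM in non-beta cells and was the lowest of the 10 in beta cells. Libraries labelled NNAT-positive had 10, 0, 5 and 1 counts, and those labelled NNAT-negative had 0, 0, 1 and 2. The 3 counts of the latter amount to 0.0502% of non-beta cells (95% counting interval 0.0104% to 0.147%). Its log2 fold changes were -8.51 (SE 0.53) and -10.47 (SE 0.64). The related factor *Mafa* had the opposite pattern. *Mafa*, an activator of the insulin genes, had 904±161 CPM (SD, *n*=8) in beta cells, against 39.2±19.9 CPM (SD, *n*=3) in the non-beta libraries (log2 fold changes 4.60 and 4.82).

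*Smad3* (chromosome 9, 63646767 to 63757994, minus strand), which carries TGF-β signals to the nucleus, kept the largest share in beta cells. It had 35.7, 30.0 and 25.1 CPM in non-beta cells, 4.05, 3.41, 2.85 and 2.97 CPM in libraries labelled NNAT-positive and 4.33, 3.47, 2.14 and 3.47 CPM in those labelled NNAT-negative. In mice 1, 2 and 3 the fraction labelled NNAT-positive had 11.3%, 11.4% and 11.3% of the level in the non-beta cells of the same mouse, and the fraction labelled NNAT-negative 12.2%, 11.6% and 8.50%, so the share was similar between mice. The log2 fold change was -3.18 in both fractions (SE 0.18 and 0.19). *Tgfbr2*, the type II receptor upstream of it, was far lower in beta cells, at 0 to 0.983 CPM against 97.6 to 177 CPM (log2 fold changes -8.01 and -9.44).

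*Zyx* (chromosome 6, 42349630 to 42360213, plus strand), the focal adhesion protein zyxin, had 58.7, 41.4 and 38.4 CPM in non-beta cells. Libraries labelled NNAT-positive had 3.12, 5.16, 4.50 and 4.52 CPM, against 2.22, 2.10, 3.91 and 2.87 CPM in those labelled NNAT-negative. In mice 1, 2 and 3, the beta cell fractions had between 3.78% and 12.4% of the non-beta level of the same mouse (log2 fold changes -3.45, SE 0.28, and -4.09, SE 0.29). *Zyx* shares 236 exonic bases with *Epha1* on the opposite strand, which had 37 to 148 counts per library.

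**Figure D2:**
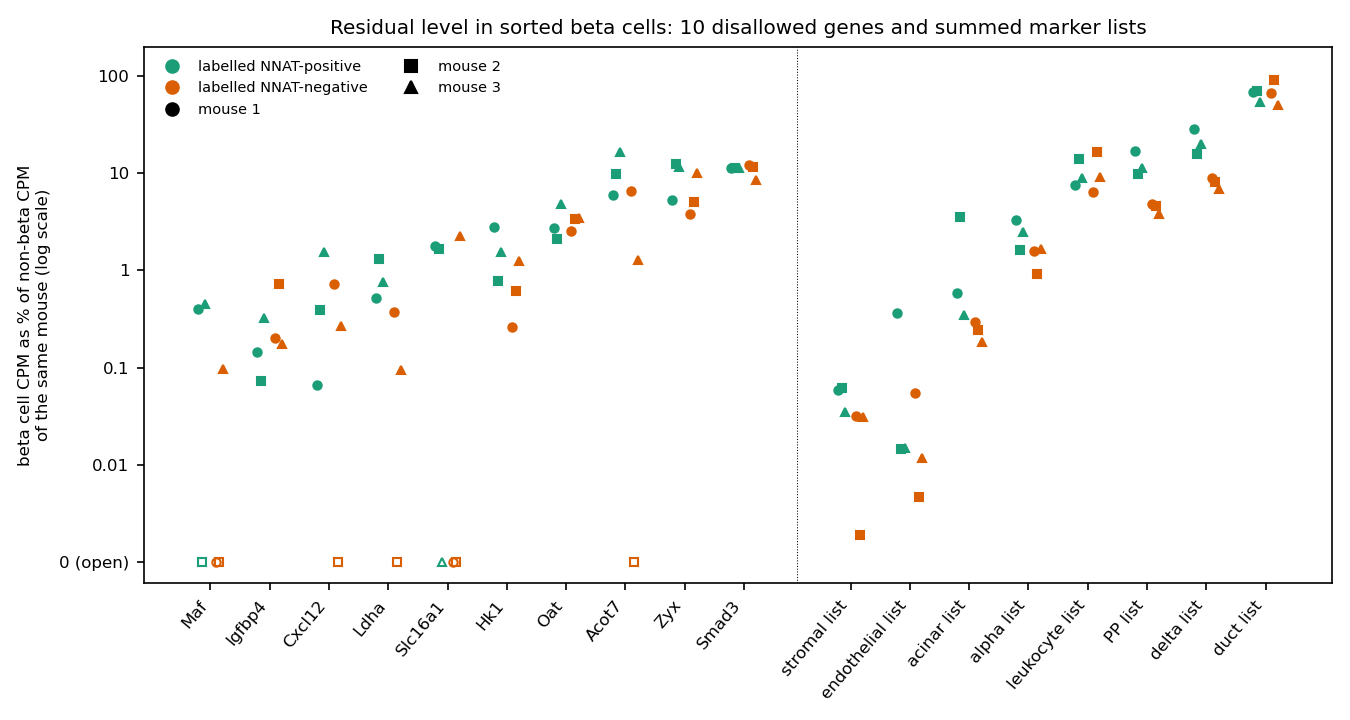
Beta cell CPM as a percentage of non-beta CPM of the same mouse (log scale, open symbols at 0), for each gene and for summed marker lists of other cell types, in mice 1, 2 and 3. The genes are ordered by their mean share, from *Maf*, at or under 0.456%, to *Smad3*, at 8.50% to 12.2%, with single values up to 16.5% for *Acot7*. The marker lists span a wider range, with stromal and endothelial sums lowest and duct sums highest.

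The 10 genes thus covered a wide range of residual levels. The beta cell mean was under 1% of the non-beta mean for 5 of them (*Maf*, *Igfbp4*, *Cxcl12*, *Ldha* and *Slc16a1*), as for 7.3% of all genes tested, and under 15% for 10 of 10, as for 15.3% of all genes. Markers of other cell types were also present in the beta cell libraries, as shares of their summed CPM in non-beta cells. For stromal markers the share was 0.0437% in the fraction labelled NNAT-positive and 0.0241% in that labelled NNAT-negative. Alpha cell markers had 2.31% and 1.30%, acinar markers 1.47% and 0.424%, and delta cell markers 18.4% and 7.60%. PP cell markers had 11.5% and 4.40%, leukocyte markers 8.88% and 9.14%, and duct markers 62.9% and 65.5%, although 5 of the 6 duct markers were called lower in each beta cell fraction. All 6 leukocyte markers were also called lower in each (median log2 fold change -6.98 and -8.96), as were 4 of the 5 delta cell markers (median -2.55 and -4.35). A summed share therefore does not hold for each marker of its list. No marker of the alpha, delta or acinar list was at 0 in every beta cell library. The part of RNA from other cells in the residual counts was not tested.

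Ordered by CPM per kilobase of exon, the beta cell levels were *Oat* (1.48±0.598), *Zyx* (0.659±0.211), *Smad3* (0.602±0.125), *Acot7* (0.333±0.251), *Igfbp4* (0.170±0.112), *Ldha* (0.0987±0.0631), *Hk1* (0.0955±0.0827), *Cxcl12* (0.0426±0.0479), *Slc16a1* (0.0329±0.0373) and *Maf* (0.00784±0.0119, each SD, *n*=8). The libraries of each gene overlapped in range with those of its neighbour throughout this order. Non-beta cells had another order, led by *Igfbp4* (78.7±51.0), *Oat* (38.1±7.51), *Ldha* (19.8±6.97) and *Cxcl12* (12.1±4.09, each SD, *n*=3). There, ranges of neighbours were separate only between *Oat* and *Ldha* and between *Hk1* (7.83±1.17) and *Smad3* (5.46±0.951). *Igfbp4* thus went from first place in non-beta cells to the fifth in beta cells.

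**Figure D3:**
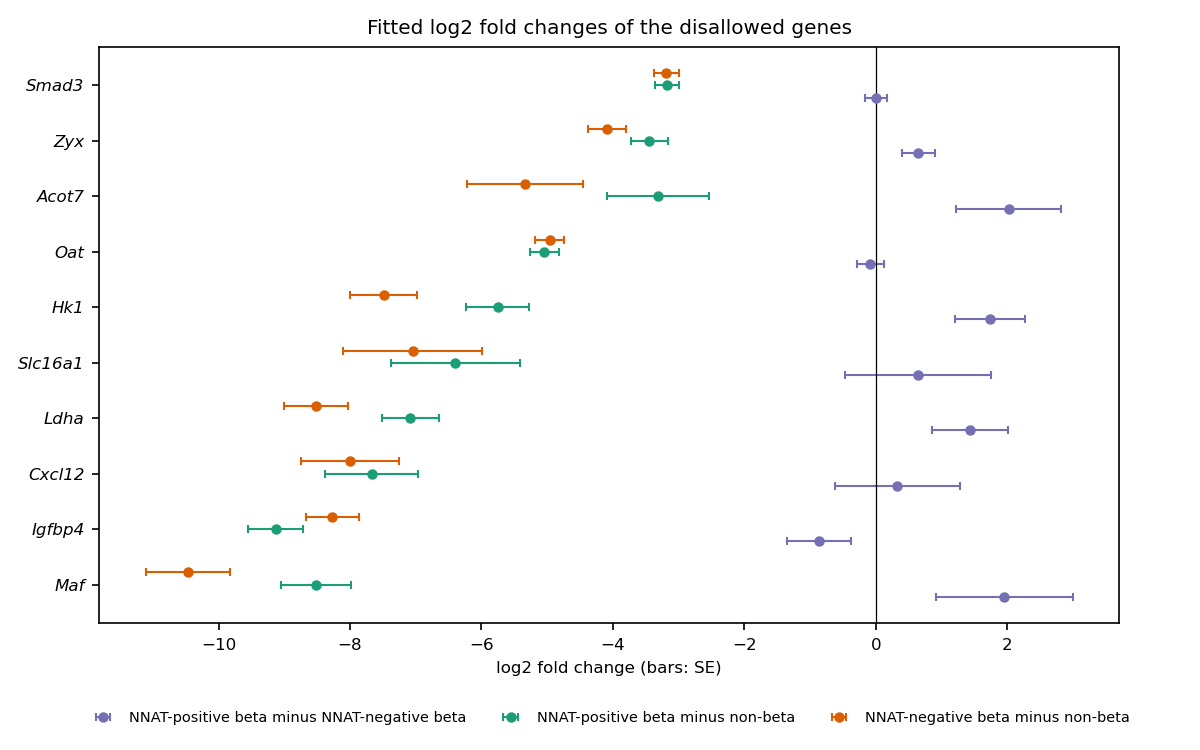
Fitted log2 fold changes with SE of each gene, ordered by residual level, in the 3 comparisons. Every difference from non-beta cells lies at or below -3.18, whereas the differences between the beta cell fractions run from -0.86 for *Igfbp4* to 2.02 for *Acot7*.

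Between the beta cell fractions, the question was whether the level of these genes differed with activity of the *Nnat* reporter. None of the 10 was called (adjusted *p* 0.565 to 1, edgeR), as for nearly all genes, of which 0.0459% were called. DESeq2 called none of them either. At an unadjusted *p* under 0.05, 4 genes were higher in the fraction labelled NNAT-positive and none lower (background 4.82% of genes higher). These were *Hk1* (log2 fold change 1.73, SE 0.53, adjusted *p*=0.565), *Zyx* (0.65, SE 0.26, adjusted *p*=0.834), *Acot7* (2.02, SE 0.79, adjusted *p*=0.834) and *Ldha* (1.43, SE 0.57, adjusted *p*=0.834), and none held after adjustment. Without the replicate block, which pairs the fractions of a mouse, 0 of the 10 were called either, and *Hk1* had a log2 fold change of 1.80.

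**Figure D4:**
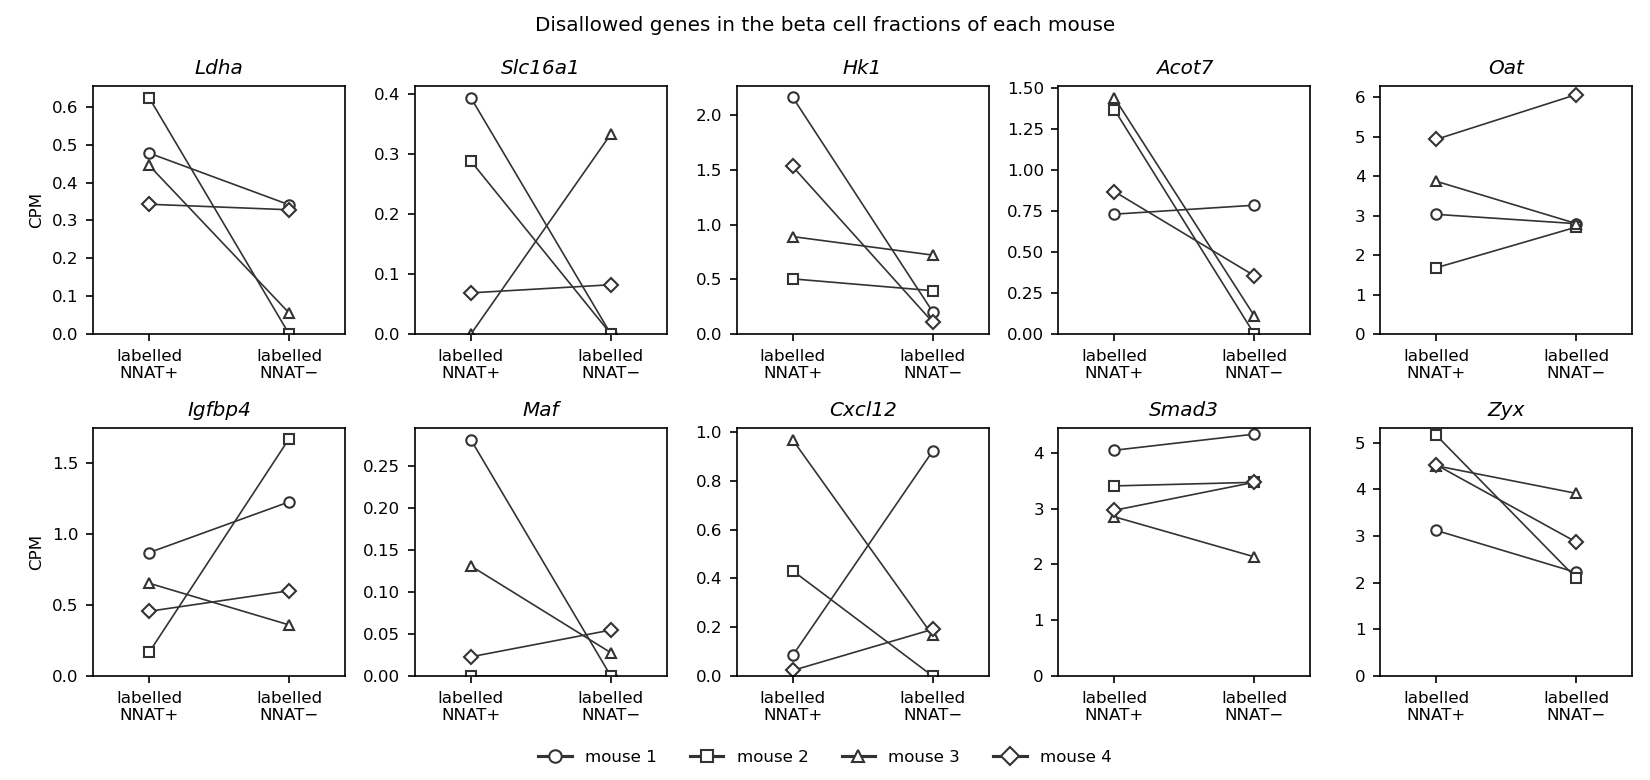
CPM of each gene in the beta cell fractions of each mouse, joined by a line (linear axes from 0, scaled per gene). Lines fall from the fraction labelled NNAT-positive to that labelled NNAT-negative in 4 of 4 mice for *Ldha*, *Hk1* and *Zyx*, and run in mixed directions for the others.

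By mouse, *Ldha*, *Hk1* and *Zyx* were higher in the fraction labelled NNAT-positive in 4 of 4 mice, as were 11.4% of all genes tested, and *Acot7* in 3 of 4. Only *Ldha* had groups that did not overlap, by a narrow margin: its lowest library labelled NNAT-positive had 0.343 CPM and its highest labelled NNAT-negative 0.341 CPM (background 1.72% of genes). *Smad3* and *Oat* had log2 fold changes near 0 (0.01, SE 0.17, and -0.08, SE 0.20), and *Igfbp4* one of -0.86 (SE 0.49). *Slc16a1* (0.65, SE 1.11), *Cxcl12* (0.32, SE 0.95) and *Maf* (1.96, SE 1.05) had wide errors. The direction of *Slc16a1* turned without mouse 1 (-0.26) and without mouse 2 (-0.12), that of *Cxcl12* without mouse 2 (-0.15) and without mouse 3 (-0.92), and that of *Oat* without mouse 2 (0.07).

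The libraries of the beta cell fractions also differed in other measured features, not all in the same direction. The library labelled NNAT-negative of mouse 2 had 5 of the 10 genes at 0 and that of mouse 1 had 2, while the libraries labelled NNAT-positive had 0, 1, 1 and 0 at 0. With both of those low-complexity libraries left out, none of the 10 was called, and the log2 fold changes were 1.19 for *Ldha*, 1.46 for *Hk1*, 2.19 for *Acot7* and 0.30 for *Zyx*. Summed markers were higher in the fraction labelled NNAT-positive in 4 of 4 mice for the alpha list (2818 to 4077 CPM against 1587 to 2486 CPM), the delta list (1462 to 2577 CPM against 626 to 1111 CPM), the PP list (299.7 to 421 CPM against 89.0 to 159 CPM) and the endothelial list (0.288 to 6.74 CPM against 0.0913 to 1.02 CPM). In the endothelial list, 3 of 6 markers were at 0 in every library labelled NNAT-negative. Stromal and acinar sums were higher in 3 of 4 mice and leukocyte sums in 1 of 4. Gene by gene, however, 5 of the 6 leukocyte markers had a higher fitted level in the fraction labelled NNAT-positive (median log2 fold change 1.61), and none was called. The summed CPM of the 10 genes was also higher in 4 of 4 mice, at 13.6 to 15.8 CPM against 10.4 to 14.1 CPM, a ratio of means of 1.26. The summed CPM of 14 further disallowed genes, described below, was higher in 2 of 4 mice, with a ratio of 1.05. The part of these features in the differences of the 10 genes was not tested.

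**Figure D5:**
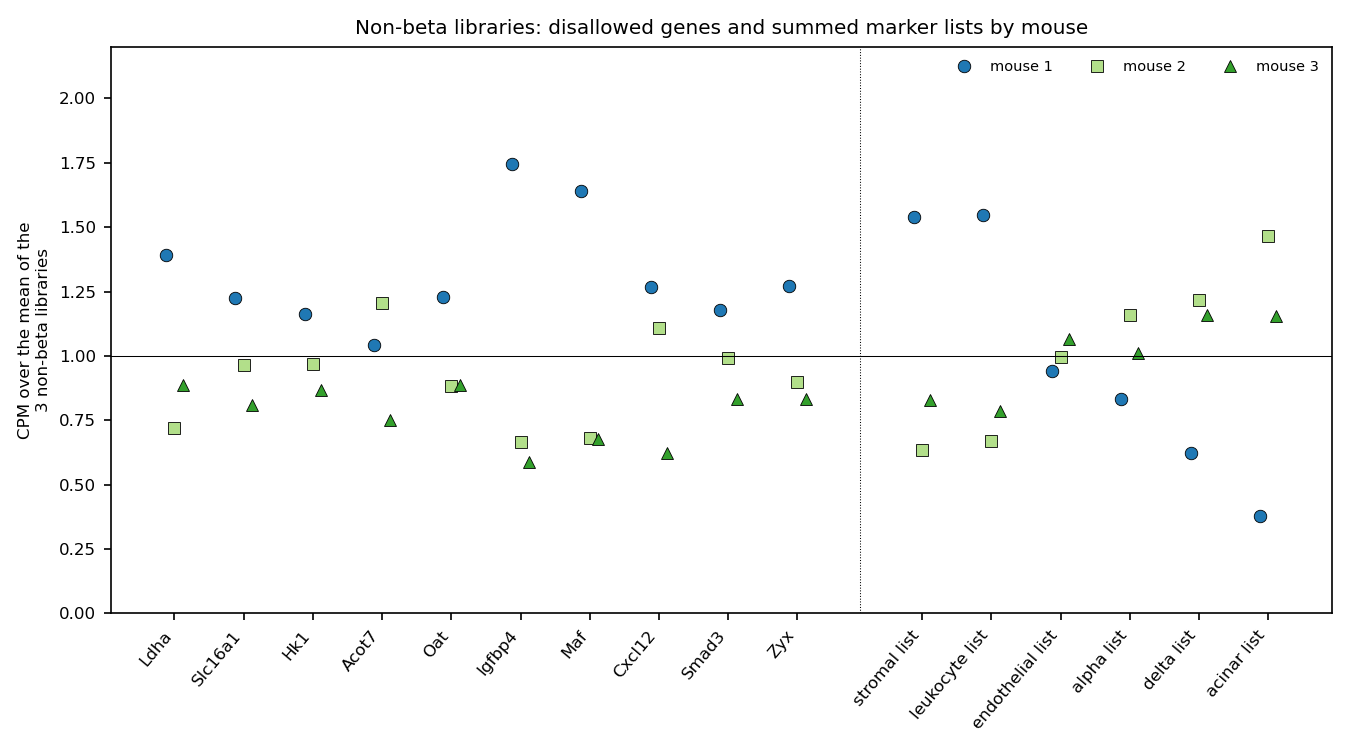
CPM of each gene and summed CPM of marker lists in the non-beta library of mice 1, 2 and 3, divided by the mean of the 3 libraries. Mouse 1 lies highest for 9 genes and for the stromal and leukocyte lists, and lowest for the alpha, delta and acinar lists.

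The non-beta libraries also differed among themselves. Mouse 1 had the highest level for 9 of the 10 genes, *Acot7* being the exception, whereas 34.9% of all genes tested were highest there. *Igfbp4* and *Maf* stood out most, at 607 and 69.5 CPM in mouse 1 against at most 231 and 28.9 CPM in mice 2 and 3. Stromal markers summed to 7911, 3257 and 4261 CPM and leukocyte markers to 1030, 445 and 524 CPM in mice 1, 2 and 3. Acinar markers ran the other way, at 14843, 57631 and 45468 CPM. The part of cell composition in these levels was not tested, and leaving out the non-beta library of mouse 1 ended none of the calls of the 10 genes against non-beta cells.

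Of 14 other genes described as disallowed in beta cells, 14 were called lower in each beta cell fraction (median log2 fold change -6.68 and -7.26). Of all genes, 15.5% and 17.1% were called lower in the fractions labelled NNAT-positive and NNAT-negative. Only 6 of the 14 passed the filter in beta cell libraries alone, so these counts describe the list and are not a test of it. None of the 14 was called between the beta cell fractions. *Pdgfra*, a growth factor receptor of mesenchymal cells, had no count in any beta cell library against 73.5 to 177 CPM in non-beta cells, at least 1373-fold lower in the fraction labelled NNAT-positive and at least 1131-fold lower in that labelled NNAT-negative at the floor of 3 counts per library. *Smoc2*, a matrix protein, had 2 counts in all in the libraries labelled NNAT-negative, 0.0148% of non-beta cells (95% counting interval 0.00180% to 0.0536%). The libraries labelled NNAT-positive held 15 *Smoc2* counts, all of them in mouse 2 (0.360 CPM). *Fcgrt*, the neonatal Fc receptor, and *Arhgdib*, a regulator of small GTPases in blood cells, had 0.152±0.216 CPM and 0.171±0.279 CPM (SD, *n*=8) in beta cells, against 80.5±34.5 and 32.3±15.6 CPM (SD, *n*=3) in the non-beta libraries.

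Of 47 isoforms and partners of the 10 genes, 44 were tested. In each fraction 19 were called lower than in non-beta cells and 2 higher, with median log2 fold changes of -0.91 in both. Of all genes, 15.5% and 17.1% were called lower and 6.13% and 6.18% higher in the fractions labelled NNAT-positive and NNAT-negative. Only 32 of the 44 passed the filter on low counts in beta cell libraries alone, so some calls of lower genes rest on genes that passed through the non-beta libraries. *Mafa* was higher in both fractions, joined by *Pycr1*, an enzyme of proline synthesis, in that labelled NNAT-positive and by *Acot13*, a mitochondrial thioesterase, in that labelled NNAT-negative. *Pycr1* and *Acot13* are named after their values were seen. None of the 44 was called between the beta cell fractions.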

How the data were processed

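RNA-seq (poly(A) selection, NEBNext Ultra II Directional kit) measured 11 libraries of FACS-sorted islet cells: 8 of beta cells, 4 under each NNAT label, and 3 of other cells. The authors aligned reads with STAR 2.7.1a to mm10 and counted genes of gencode vM25 with STAR. The deposited values are whole-number counts per gene without normalisation. The strand setting of the counting is not given in the sources used here. STAR 2.7.1a, DESeq2 1.32.0 and mm10 are named in the submitters' processing notes, and the study does not state a mouse block. Among 55 pairs of libraries, 0 held the same values. Of 55401 rows, 202 had no symbol (0.0855% to 0.847% of counts per library). They had gene identifiers and stayed in the fit.

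Counts were analysed in R 4.3.3 with the quasi-likelihood test of edgeR 4.0.16 (TMM, filterByExpr by group, group and mouse as terms, 11 libraries in one fit), which tested 17424 genes. Benjamini-Hochberg adjustment ran over all of these, and a gene was called at an adjusted *p* below 0.01 and over 2-fold. A log2 fold change has its SE from the square root of *F*. Same-numbered libraries were taken to come from 1 mouse: replicates were individual mice by the study's text, and the labels number them within each fraction. Deviations from the fraction means correlated at a mean of 0.314 (0.182 to 0.658, 4 pairs) between beta cell fractions of the same number and -0.103 between others (12 pairs). Mouse 4 gave the highest value, 0.658, and its beta cell libraries correlated at -0.32 to -0.23 with other numbers of the opposite fraction. Among mice 1, 2 and 3 the values were 0.182 to 0.219 for the same number and 0.0055 to 0.0931 for others. Non-beta and beta cell libraries of the same number correlated more weakly, at a mean of 0.0828 (0.0321 to 0.125, 6 pairs, against -0.0276 over 18 others). That pairing rests on the shared numbers. Alternatives covered DESeq2 1.42.0, RLE size factors, filters, the block, the libraries fitted, *Ins1* and *Ins2*, thresholds and leaving out each mouse. Leaving out single libraries, or the libraries labelled NNAT-negative of mice 1 and 2, was added after the data were seen. The floor was 3 counts per library, and 95% intervals are exact Poisson intervals that cover counting error only.

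Positions and exon lengths came from gencode M21 (GRCm38, the sequence of mm10), which 55141 identifiers matched, and upstream sequences from RefSeq (GRCm38.p6). The genes, the further lists and the markers were chosen with earlier results of these data known. Named were the 10 genes, fixed counterparts (*Hk2*, *Ldhb*, *Slc16a3*, *Slc16a7*, *Bsg*, *Mafa*, *Cxcr4* and *Tgfbr2*), *Nnat*, and the 3 called genes with the largest change of each further list in each comparison. Of the marker lists not described elsewhere, the duct list summed to 302 to 484 CPM in non-beta cells and 215 to 275 CPM in beta cells. Some counterparts and markers are not reported here. The authors' own fold changes and *p* values were not used.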

Additional observations from a re-analysis of the deposited data

Results flagged for a closer look

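Of 20 sets of 4 beta cell libraries (10 genes in 2 fractions), 1 held a library far from the others. *Oat* in the library labelled NNAT-negative of mouse 4 had 6.07 CPM, while the next highest of its fraction had 2.80 CPM, so that the gap made up 0.973 of the range (critical value 0.829). Chance gives such a library in about 1 in 20 sets. In the fraction labelled NNAT-positive, mouse 4 also had the highest *Oat* level, at 4.93 CPM.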

How the results depend on the processing

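All 10 genes were called lower in the fraction labelled NNAT-negative than in non-beta cells, and none was called between the beta cell fractions, under every alternative run. In the fraction labelled NNAT-positive, 10 were called lower except without mouse 3 or mouse 4 (9 genes, *Acot7* being lost at log2 fold changes of -3.64 and -3.21). The paired fit gave the main values, and the fit with no replicate block changed no call of the 10 genes, but 1 gene in place of 8 was then called higher between the beta cell fractions. Over all genes, that count was 80 with DESeq2 (and 6 lower in place of 0), 25 with no filter on low counts (1 lower), 16 at an adjusted *p* below 0.05, 0 to 11 when leaving out a mouse or a single library (11 without the non-beta library of mouse 1, 0 without mouse 3), and 0 without the libraries labelled NNAT-negative of mice 1 and 2. With no fold threshold, 2746 and 2711 genes were called higher than in non-beta cells in the fractions labelled NNAT-positive and NNAT-negative, in place of 1068 and 1076. Between the beta cell fractions, the direction of small changes turned. *Smad3* (0.01) had -0.031 with RLE size factors, with DESeq2 (-0.035), with no filter (-0.027), in the fit of the 2 fractions alone (-0.027), without *Ins1* and *Ins2* (-0.025) and without the non-beta library of mouse 1 (-0.025), -0.014 with no replicate block, -0.0037 with the strict filter and -0.11 (without mouse 3) to 0.052 (without the library labelled NNAT-negative of mouse 1) when leaving out a mouse or a library. Over all 15 alternatives, *Smad3* ran from -0.11 to 0.11. *Slc16a1* (0.65) had -0.26 without mouse 1, -0.12 without mouse 2, -0.03 without the library labelled NNAT-negative of mouse 1 and -1.05 without those of mice 1 and 2, but 2.75 without mouse 3. *Cxcl12* (0.32) had -0.15 without mouse 2, -0.92 without mouse 3 and -0.28 without the library labelled NNAT-negative of mouse 2, but 1.78 without mouse 1. *Oat* (-0.08) had 0.074 without mouse 2. The cause was not tested. Beta cell libraries held 0 to 77 counts each of *Ldha*, *Slc16a1*, *Hk1*, *Acot7*, *Igfbp4*, *Maf* and *Cxcl12*.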
